A study of Mus musculus with 72 samples.

Results

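The livers described here are those of male mice of the inbred strain 129S2 and of the inbred strain C57BL/6J, all taken at postnatal day 7 (P7). They were chosen by their labels alone and account for 6 of the 72 arrays of the study, 3 for each strain. The study took whole liver and whole brain of 129S2, DBA/2J and C57BL/6J males at 4 ages, E14.5 and P1 to P90, with 3 arrays in each of 24 groups, and asks how segmental copy number variation among strains bears on tissue transcriptomes. Per the labels, the 129S2 line came from Charles River in France and the C57BL/6J and DBA/2J lines from The Jackson Laboratory, and P7 pups were offspring of the purchased mice. Strain and supplier therefore cannot be told apart. The labels name no treatment or engineered allele in any group. The labels do not say whether the 3 samples of a strain came from separate animals or litters, so p-values measure only the spread between these samples.

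At the end of the first week the mouse liver serves a suckling animal on a fat-rich diet. Its hepatocytes, the main cell of the tissue, make plasma proteins, bile acids and glucose and acquire the cytochrome P450 enzymes that oxidise drugs and steroids. Blood formation, which the fetal liver hosts, is receding at this age, and red cell and granulocyte precursors are still found beside Kupffer cells, the resident macrophages.

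Expression was read as log2 RMA signal, 1 unit being a 2-fold difference, and a level near the low end of the scale is not shown to be transcript. A total of 12580 genes whose highest strain mean passed the median of all P7 liver values (6.39) were tested, each through the probe set whose mean was highest. Array medians lay between 6.35 and 6.38 in 129S2 and between 6.39 and 6.40 in C57BL/6J. The correlation across genes of 2 arrays was 0.989 to 0.995 within a strain, DBA/2J included, and 0.984 to 0.990 between 129S2 and C57BL/6J. The Y-linked transcripts Eif2s3y, Kdm5d and Uty averaged 9.52, 7.70 and 7.46 in 129S2 livers and 9.57, 7.96 and 7.06 in C57BL/6J livers, and Xist lay under the filter. Of 15 tested hepatocyte markers 0 were called. For 10 of them both strain means lay above 14, close to the highest value on an array (14.83 to 14.87), where a difference may be compressed, and their lack of calls does not show equal levels. The other 5, Hnf4a, Tat, Cps1, Apob and Pck1, differed by 0.04 to 0.34. Tested markers of pancreas (3 of 8 listed) and of muscle, fat and mesothelium (4 of 8) differed by -0.06 to 0.19, and none was called.

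A gene was called when its adjusted p was below 0.05 and its difference at least 1.5-fold. Of the 12580 genes, 632 were called (5.02%), 288 of them higher in 129S2 (2.29%) and 344 lower (2.73%). The difference was at least 2-fold for 218 genes, 82 higher and 136 lower, and at least 4-fold for 37, 18 higher and 19 lower. The median difference over all tested genes was 0.04. The arrays of the strains did not overlap for all 632, as for 30.2% of all tested genes. In 99 of the 632, one strain mean lay under the filter value, so the size of these folds is uncertain.

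**Figure D1:**
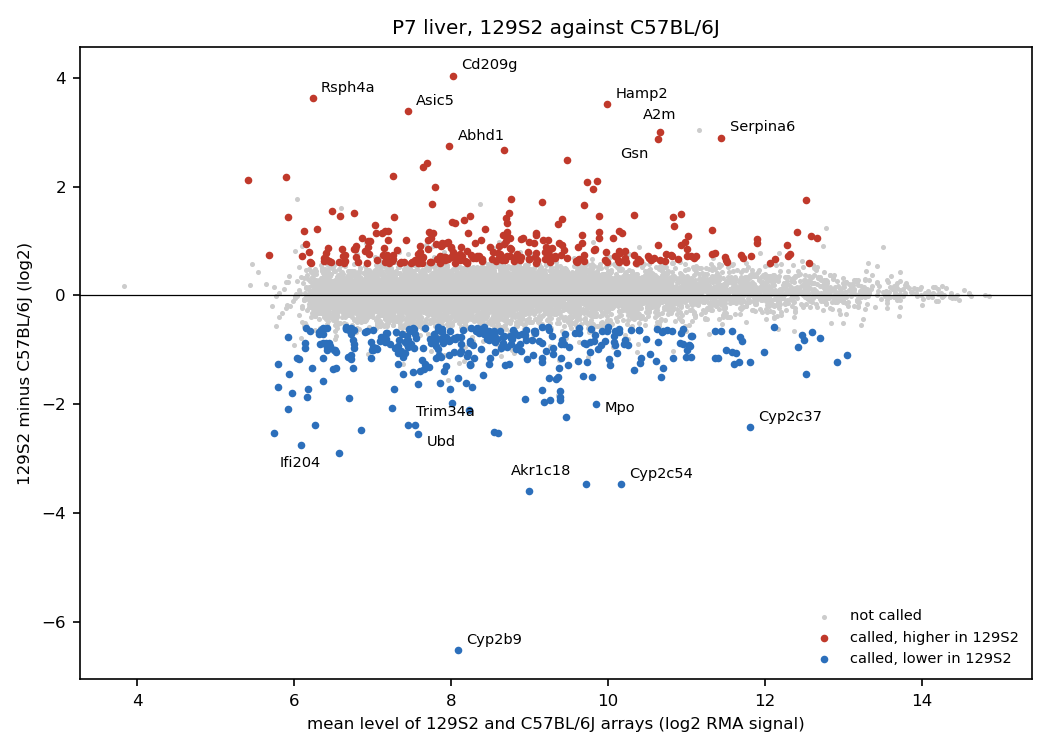
Each point is a tested gene, placed by its mean level on the 129S2 and C57BL/6J arrays (log2 RMA signal) and by its difference, 129S2 minus C57BL/6J (log2). Of 632 called genes, 288 are higher in 129S2 (red) and 344 lower (blue), and Cyp2b9 lies lowest at -6.53 and Cd209g highest at 4.04.

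The lowest gene was Cyp2b9, a cytochrome P450 whose transcript is known in adult mouse liver for being higher in females. It read 5.39, 4.84 and 4.23 on the 129S2 arrays, against 11.11, 11.52 and 11.42 on the C57BL/6J arrays. The difference of -6.53 (SE 0.25, adjusted p = 8.2e-07) is a 92.4-fold lower signal in 129S2, and all 3 129S2 arrays lay below the filter value. Its neighbour Cyp2b13, another P450 of the same subfamily, read 6.84, 6.19 and 6.02 in 129S2, against 8.41, 9.08 and 8.70 in C57BL/6J (-2.38, SE 0.32, adjusted p = 0.0013). The third tested member, Cyp2b10, which responds to drugs through the receptor Car, differed by -0.58 and did not reach 1.5-fold. The differences of these 3 genes thus spanned -6.53 to -0.58.

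Of 10 tested Cyp2c genes, P450s that oxidise drugs and fatty acids, 4 were called lower and 1 higher. Cyp2c54 read 8.54, 8.80 and 7.95 in 129S2, against 11.25 to 12.46 in C57BL/6J (-3.47, SE 0.28, adjusted p = 8.2e-05). Cyp2c37 read 10.62, 10.60 and 10.56 in 129S2, against 12.66, 13.60 and 12.81 in C57BL/6J (-2.43, SE 0.23, adjusted p = 0.00021). The 129S2 arrays lay close together for Cyp2c37, and C57BL/6J replicate 2 was the highest array for both. Cyp2c50 and Cyp2c68 were lower too, with differences of -1.04 and -0.83. Cyp2c39 went the other way, with 7.90, 7.48 and 8.40 in 129S2 and 6.86, 7.10 and 6.79 in C57BL/6J (1.01, adjusted p = 0.035). Its call was lost when any of 4 single arrays was left out (129S2 replicate 1 or 3, C57BL/6J replicate 1 or 3), with adjusted p up to 0.12. Cyp2c29, Cyp2c55, Cyp2c23, Cyp2c38 and Cyp2c70 differed by -0.66, -0.42, -0.13, -0.07 and 0.51 and were not called. The genes of this cluster are close paralogs, so probe sets may read more than one of them, and their separate values are uncertain.

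Among the 29 tested genes of a chosen list of P450s of drug and steroid metabolism, 2 were called higher and 6 lower. The median difference of the list was -0.04 against 0.04 over all genes. The list does not hold every P450 gene called lower here. Cyp1a2, which oxidises caffeine, was higher, with 11.72, 11.45 and 11.51 in 129S2 and 10.49, 10.49 and 10.42 in C57BL/6J (1.09, adjusted p = 0.0012). Cyp2f2, a P450 of airway and liver, was lower, with 10.30, 10.40 and 10.05 in 129S2 and 10.95, 11.38 and 11.87 in C57BL/6J (-1.15, adjusted p = 0.0082). Cyp3a11 and Cyp2e1, major P450s of mouse liver, differed by 0.02 and 0.03 and were not called.

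Enzymes that reduce steroids lay among the lowest genes as well. Akr1c18, the 20-alpha-hydroxysteroid dehydrogenase that inactivates progesterone, read 8.04, 8.23 and 7.69 in 129S2, against 11.52, 11.52 and 11.32 in C57BL/6J (-3.47, SE 0.34, adjusted p = 0.00022). Its relative Akr1c19 read 7.44, 7.30 and 7.13 in 129S2, against 9.24, 9.85 and 10.34 in C57BL/6J (-2.52, SE 0.22, adjusted p = 0.00012). The strains were apart by more than 1.5 units at the nearest arrays for both genes. Among 32 tested genes of conjugation and glutathione, 4 were called higher and 1 lower. Tpmt, the thiopurine methyltransferase, was higher by 1.48 and Gstm2 by 1.05, and Gstm6 was lower (-1.31). With the probe set that carries no suffix, Tpmt differed by 0.59 (adjusted p = 0.23), and the glutathione transferases are close paralogs.

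**Figure D2:**
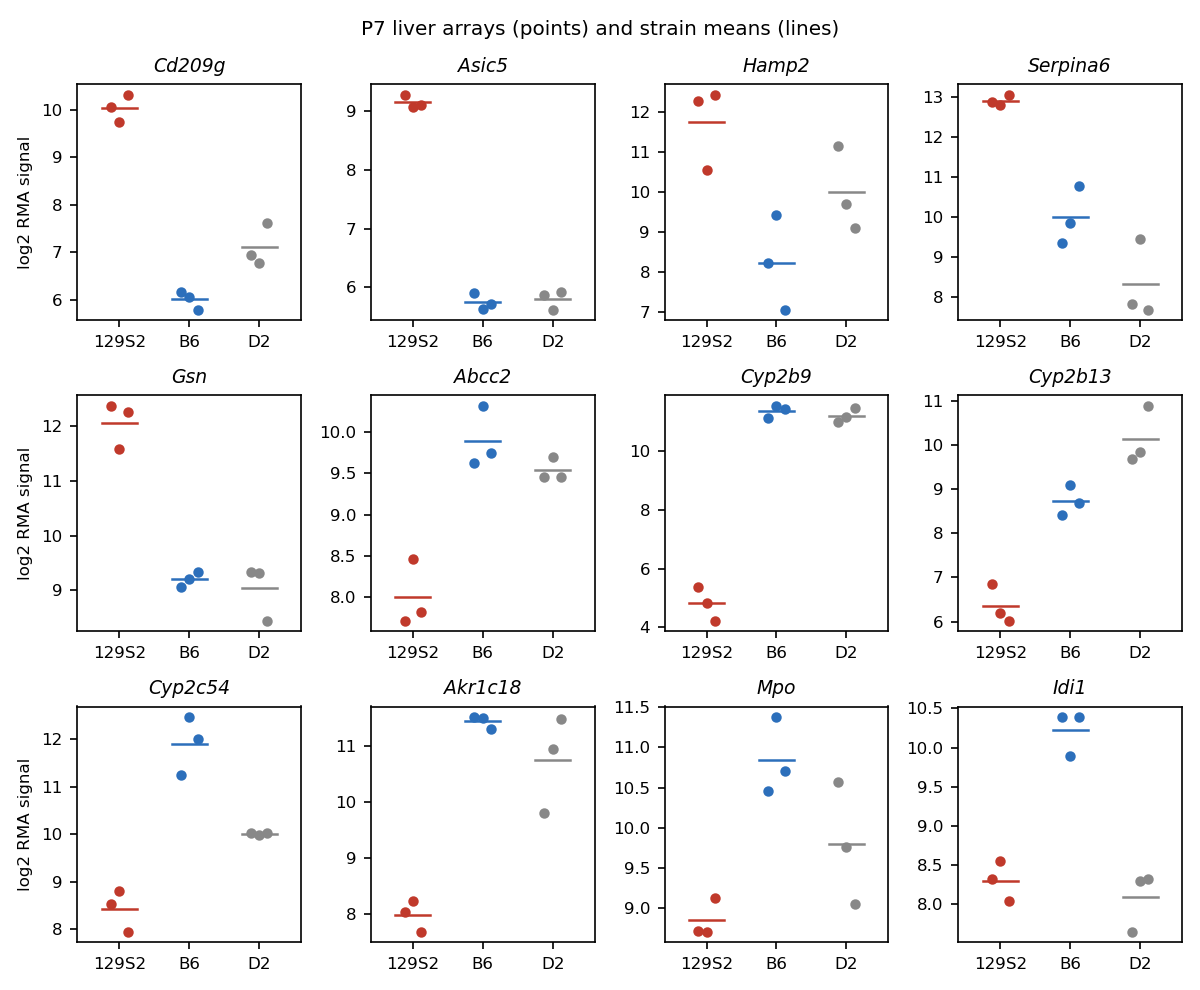
Each panel gives the log2 RMA signal of a gene on the 3 arrays of 129S2 (red), C57BL/6J (B6, blue) and DBA/2J (D2, grey) P7 liver, with lines at the strain means. Panels have their own vertical scale. Cyp2b9 stands at 5.39 or less on the 129S2 arrays and at 11.11 or more on the C57BL/6J arrays, and Asic5 at 9.06 or more in 129S2 and at 5.91 or less in C57BL/6J.

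The highest gene was Cd209g, a C-type lectin of the family that binds sugars on pathogens. It read 10.06, 9.74 and 10.31 in 129S2, against 6.16, 6.06 and 5.79 in C57BL/6J (4.04, SE 0.21, adjusted p = 6.5e-06, 16.4-fold). Rsph4a, a radial spoke protein of motile cilia, read 8.10, 8.17 and 7.88 in 129S2, against 4.10, 4.40 and 4.77 in C57BL/6J (3.63, adjusted p = 8.8e-06). Asic5, an ion channel activated by bile acids, read 9.26, 9.06 and 9.10 in 129S2, against 5.91, 5.63 and 5.71 in C57BL/6J (3.39, SE 0.11, adjusted p = 3.1e-07). For these genes the C57BL/6J arrays all lay under the filter value of 6.39.

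Of 31 tested genes of plasma proteins and coagulation, 1 was called higher and 0 lower (median 0.11). That gene, Serpina6, the corticosteroid-binding globulin of plasma, read 12.86, 12.79 and 13.03 in 129S2, against 9.35, 9.86 and 10.78 in C57BL/6J (2.90, SE 0.45, adjusted p = 0.0031). Hamp2, a paralog of the iron hormone hepcidin, read 12.27, 10.55 and 12.42 in 129S2, against 8.22, 9.42 and 7.06 in C57BL/6J (3.52, SE 0.69, adjusted p = 0.011). The spread within each strain was wide for Hamp2 and narrow in 129S2 for Serpina6. Hepcidin itself, Hamp, read 12.98, 11.56 and 13.50 in 129S2, against 9.68, 11.91 and 7.32 in C57BL/6J (3.04, SE 1.05, adjusted p = 0.099). It was not called, and its strains overlap, with C57BL/6J replicate 2 above 129S2 replicate 2. The 2 genes are close copies, and their probe sets may not separate them.

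Gsn, the actin-severing protein gelsolin with a plasma form, read 12.37, 11.58 and 12.26 in 129S2, against 9.05, 9.21 and 9.34 in C57BL/6J (2.87, adjusted p = 0.00014), and its 3 further probe sets were called the same way. A2m, the protease inhibitor alpha-2-macroglobulin, read 11.58, 11.68 and 13.25 in 129S2, against 9.24, 9.42 and 8.81 in C57BL/6J (3.01, SE 0.70, adjusted p = 0.023). The A2m call was lost without 129S2 replicate 3, C57BL/6J replicate 1 or C57BL/6J replicate 3 (adjusted p up to 0.091). 129S2 replicate 3 stood apart in that gene, in Rad51b, a DNA repair gene (8.10, 8.19 and 10.16 in 129S2, against 6.50, 6.82 and 6.08 in C57BL/6J), and in the acute phase gene Saa1 (8.30, 8.24 and 11.09 in 129S2, against 7.52, 7.35 and 7.73 in C57BL/6J). Saa1 was not called (adjusted p = 0.14), nor was any of the 27 tested acute phase genes.

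Abhd1, an alpha-beta hydrolase, was higher by 2.74, Pik3ap1, an adaptor of phosphoinositide kinase in immune cells, by 2.67, and Hddc3, a phosphohydrolase, by 2.43. Cox6b2, a subunit of cytochrome oxidase best known from testis, was higher by 2.49. Slc25a31, a mitochondrial ADP/ATP carrier of germ cells, was higher by 2.12, with 7.26, 5.90 and 6.25 in 129S2 and 5.23, 3.88 and 3.94 in C57BL/6J. Of its 6 arrays, 129S2 replicate 1 alone lay above the filter value. Of the lowest genes, Ubd, a ubiquitin-like modifier induced by cytokines, read 6.04, 6.62 and 6.25 in 129S2, against 9.96, 8.39 and 8.21 in C57BL/6J (-2.55, adjusted p = 0.0046). Aqp4, a water channel, was lower (-2.39), and so was Rpgrip1, a protein of the photoreceptor cilium (-2.53).

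Genes of cholesterol synthesis were lower in 129S2. Hepatocytes make sterols from acetyl-CoA through mevalonate, isoprenoids and squalene, and the SREBP transcription factors raise the pathway's genes together with NF-Y, which binds CCAAT boxes, when cell sterol is low. Of 20 tested genes of synthesis and uptake, 11 were called lower and 0 higher, with a median of -0.67 against 0.04 over all genes. The steps run from Hmgcs1, the HMG-CoA synthase at the start, to the late sterol enzymes, and the 250 bases before the RefSeq start of 4 of the called genes are printed here because they span the pathway. Sequences are from RefSeq (GRCm38.p6), read on the gene's strand, and capitals mark CCAAT boxes (CCAAT or ATTGG) and the sterol element searched (TCACNCCAC or GTGGNGTGA).
Hmgcs1 (chr13:119690101-119690350, plus strand): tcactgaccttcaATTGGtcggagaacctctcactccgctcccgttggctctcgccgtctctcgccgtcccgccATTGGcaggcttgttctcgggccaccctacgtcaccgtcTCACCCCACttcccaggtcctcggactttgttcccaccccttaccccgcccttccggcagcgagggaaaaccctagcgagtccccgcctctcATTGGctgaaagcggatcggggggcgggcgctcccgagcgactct
Idi1 (chr13:8885356-8885605, plus strand): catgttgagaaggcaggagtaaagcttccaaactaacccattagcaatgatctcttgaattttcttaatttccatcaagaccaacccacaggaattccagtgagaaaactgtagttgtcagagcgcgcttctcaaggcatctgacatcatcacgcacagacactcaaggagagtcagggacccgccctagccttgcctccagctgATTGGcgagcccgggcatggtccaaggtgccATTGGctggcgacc
Cyp51 (chr5:4104698-4104947, minus strand): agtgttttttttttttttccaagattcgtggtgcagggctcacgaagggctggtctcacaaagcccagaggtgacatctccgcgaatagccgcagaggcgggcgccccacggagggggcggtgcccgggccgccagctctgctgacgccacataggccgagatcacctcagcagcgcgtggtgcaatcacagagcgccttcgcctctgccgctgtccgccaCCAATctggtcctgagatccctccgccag
Msmo1 (chr8:64733579-64733828, minus strand): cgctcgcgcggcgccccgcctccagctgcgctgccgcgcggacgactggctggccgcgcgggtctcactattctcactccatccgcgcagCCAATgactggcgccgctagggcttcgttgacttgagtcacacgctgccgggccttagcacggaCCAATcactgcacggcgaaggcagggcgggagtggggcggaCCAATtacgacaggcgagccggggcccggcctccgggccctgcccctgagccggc
Each of the 9 called genes with a window (Fdps and Sqle had none in the table) held a CCAAT box on either strand, as did all 7 genes with a window that were not called, in at least 1 window each (7 of their 10), and 33.8% of all 32851 promoter windows of this length. The sterol element was found in 1 of the 9 genes, in 0 of the 7 and in 1.05% of all windows. A match describes letters and no binding was measured.

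At the start of the pathway, Hmgcs1 read 10.94, 10.76 and 10.65 in 129S2, against 12.18, 11.51 and 12.12 in C57BL/6J (-1.16, SE 0.20, adjusted p = 0.0063). Of the isoprenoid steps, Idi1, the isomerase of isopentenyl diphosphate, read 8.32, 8.55 and 8.03 in 129S2, against 10.39, 9.89 and 10.38 in C57BL/6J (-1.92, SE 0.21, adjusted p = 0.00044). Fdps, the farnesyl diphosphate synthase, read 8.49, 8.65 and 8.34 in 129S2, against 10.37, 9.59 and 10.07 in C57BL/6J (-1.52, adjusted p = 0.0021). C57BL/6J replicate 2 was the lowest array of its strain for these 3 genes and still lay above every 129S2 array. Mvd, which makes isopentenyl diphosphate, was lower too (-0.68, adjusted p = 0.029).

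Among sterol steps, Sqle, the squalene epoxidase, read 8.55, 8.81 and 8.46 in 129S2, against 10.14, 9.94 and 10.27 in C57BL/6J (-1.51, adjusted p = 0.00082). Cyp51, the lanosterol demethylase, read 7.37, 7.58 and 7.31 in 129S2, against 9.14, 9.01 and 9.16 in C57BL/6J (-1.68, SE 0.14, adjusted p = 9.2e-05). Msmo1, the methyl sterol oxidase, read 8.91, 9.21 and 9.02 in 129S2, against 10.38, 10.46 and 10.78 in C57BL/6J (-1.49, adjusted p = 0.00085). These strains are apart by more than the whole spread within either. Lss, Nsdhl and Sc5d, further sterol enzymes, differed by -0.69, -0.86 and -1.01 and were called. Insig1, which holds SREBP in the endoplasmic reticulum and is itself a target of SREBP, was lower as well (-0.67, adjusted p = 0.028). Srebf2, which encodes the SREBP of this pathway, differed by 0.05 (adjusted p = 0.81), Hsd17b7 by 0.07, and Mvk, Pmvk, Fdft1, Tm7sf2, Ebp, Dhcr7 and Stard4 by -0.53 to -0.20, none of them called. With a single array left out, 8 to 11 of the 20 were called. The mean level of the 20 genes was 9.02 to 9.19 on the 129S2 arrays and 9.73 to 9.97 on the C57BL/6J arrays.

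Markers of granulocytes and their precursors were lower in 129S2 than in C57BL/6J. Of 15 tested, 12 were called lower and 0 higher, with a median of -1.27. Mpo, the myeloperoxidase of neutrophil granules, read 8.71, 8.71 and 9.13 in 129S2, against 10.45, 11.37 and 10.71 in C57BL/6J (-2.0, SE 0.34, adjusted p = 0.0054). Elane, neutrophil elastase, read 8.16, 8.34 and 8.36 in 129S2, against 9.80, 10.46 and 9.85 in C57BL/6J (-1.75, adjusted p = 0.00082). Ctsg, cathepsin G of the same granules, read 7.22, 7.00 and 7.29 in 129S2, against 9.04, 9.78 and 9.04 in C57BL/6J (-2.12, adjusted p = 0.0032). C57BL/6J replicate 2 was the highest array for each, and no array of one strain reached the other.

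Prtn3, a further granule protease, differed by -1.87 (adjusted p = 0.022). It lost its call without 129S2 replicate 1, 129S2 replicate 2 or C57BL/6J replicate 2 (adjusted p up to 0.082). Genes of later granules and of mature cells were lower as well, among them Ltf, lactoferrin (-1.51), Ngp (-1.45), and the calcium-binding pair S100a8 and S100a9 (-1.09 and -1.22). S100a9 read 12.39, 12.24 and 12.28 in 129S2, against 13.34, 13.61 and 13.62 in C57BL/6J. Lcn2, Mmp9 and Cxcr2 differed by -0.18, -0.37 and -0.08 and were not called. The summed level of the list was at most 14.85 on the 129S2 arrays and at least 15.56 on the C57BL/6J arrays (log2 of the sum of linear signals), and its part in other differences was not tested. In whole liver, fewer cells of a type and less RNA per cell cannot be told apart, here or for the lists below. Of 5 tested markers of mast cells, basophils and eosinophils, 1 was called lower and 0 higher. This was Mcpt8, a protease of basophils, which read 6.26, 6.16 and 6.21 in 129S2, against 8.20, 8.25 and 8.39 in C57BL/6J (-2.07, SE 0.12, adjusted p = 6.5e-06). Prg2, Epx, Gata2 and Cpa3 differed by -1.55, -0.91, -0.09 and 0.02 and were not called.

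Of 11 tested markers of T and natural killer cells, 6 were called lower and 0 higher (median -0.78). Gzma, a granzyme of killer cells, read 8.33, 8.88 and 7.81 in 129S2, against 10.75, 10.04 and 10.94 in C57BL/6J (-2.23, SE 0.35, adjusted p = 0.0036). Klrd1, the CD94 receptor of natural killer cells, read 6.83, 6.96 and 6.49 in 129S2, against 8.37, 8.45 and 8.34 in C57BL/6J (-1.63, adjusted p = 6.9e-05). Gzmb differed by -1.62, Cd3g, a chain of the T cell receptor complex, by -1.44, Nkg7 by -1.19 and the chemokine Ccl5 by -0.78. The summed level was 10.71 to 11.03 in 129S2 and 11.80 to 12.18 in C57BL/6J. Cd3g had means of 5.21 in 129S2, under the filter value, and 6.65 in C57BL/6J, so the size of its difference is uncertain. Cd3e, Cd4 and Cd8a, which define T cells, differed by -0.06, -0.06 and -0.05 and were not called. Cd3d (-0.50, adjusted p = 0.014) did not reach 1.5-fold. Ncr1, a receptor of natural killer cells, differed by -0.19 and was not called, with means of 5.62 in 129S2 and 5.82 in C57BL/6J, both under the filter value.

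Kupffer cell markers included 7 of 15 called lower and 0 higher (median -0.66). Cd68, a lysosomal protein of macrophages, read 8.06, 8.29 and 8.19 in 129S2, against 9.22, 9.11 and 9.01 in C57BL/6J (-0.94, adjusted p = 0.0014). C1qa and C1qc, chains of complement C1q made by macrophages, differed by -1.01 and -0.94. The scavenger receptor Marco (-1.13) lost its call without 129S2 replicate 1 or 3, Vsig4 (-0.66) without C57BL/6J replicate 2, and Cd5l (-0.73) without any 1 of 5 arrays, all but C57BL/6J replicate 2. With a single array left out, 4 to 8 of the 15 were called, 4 without 129S2 replicate 1 or 3. Clec4f, which defines Kupffer cells, differed by -0.22, Timd4 by -0.47 and Cd163 by 0.14, and none of them was called.

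Other blood and liver cell lists had few called genes. Of 20 tested erythroid markers 0 were called, and all 20 had a negative difference (median -0.35, range -0.67 to -0.07). Their mean level was 9.58, 9.60 and 9.40 in 129S2, against 10.07, 9.25 and 10.36 in C57BL/6J, so the strains overlap, C57BL/6J replicate 2 being the lowest array. Without that array the median was -0.69, and without C57BL/6J replicate 3 it was -0.15. Cell cycle genes, with a median of -0.19 and 0 of 30 called, had the same low array (9.59, 9.59 and 9.48 in 129S2, against 9.94, 9.28 and 10.03 in C57BL/6J), and 4 of the 30 were called lower without it. The median was -0.44 without C57BL/6J replicate 2, -0.07 without replicate 1 and -0.05 without replicate 3 of that strain. Of 11 B lineage markers 0 were called (median 0.06), nor any of 12 for sinusoidal endothelium (-0.04), 7 for platelets (-0.17) or 4 for bile duct (0.12). Pdgfrb was the 1 called gene of 14 for stellate cells and matrix (0.79), and its other probe set was not called.

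**Figure D3:**
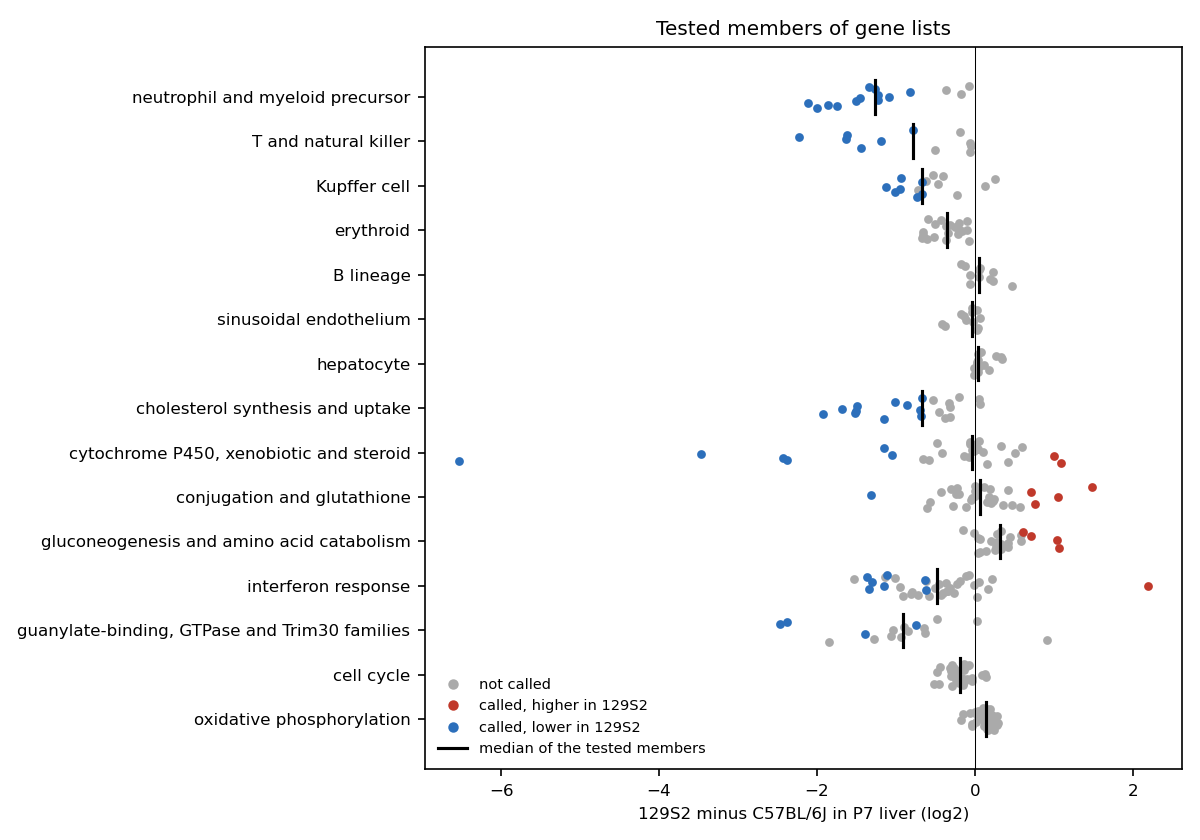
Each point is a tested member of a gene list, placed by its P7 liver difference, 129S2 minus C57BL/6J (log2), with black bars at the list medians. Blue points gather in the neutrophil list (12 of 15 called lower) and the cholesterol list (11 of 20), while 0 of 20 erythroid markers are coloured. Of the 15 hepatocyte markers, also uncoloured, 10 lie near the top of the scale.

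Of 36 tested interferon-induced genes, which respond to viral nucleic acids, 7 were called lower in 129S2 and 1 higher, and 31 differences were negative (median -0.48). Their mean level was 8.37, 8.36 and 8.38 in 129S2, against 9.33, 8.59 and 8.68 in C57BL/6J. C57BL/6J replicate 1 stood above the other two, and without it the median was -0.29 and 4 genes were called lower. Without 129S2 replicate 1, 3 were called lower. Oasl2, an oligoadenylate synthetase-like protein, read 5.79, 6.19 and 6.25 in 129S2, against 7.89, 7.13 and 7.23 in C57BL/6J (-1.34, adjusted p = 0.017), and lost its call without that array or without 129S2 replicate 1 (adjusted p up to 0.071). Bst2, tetherin, differed by -1.15 and Cmpk2, a nucleotide kinase, by -1.12. The immunoproteasome gene Psmb8 (-1.37) and the nucleic acid sensor Zbp1 (-1.30) had adjusted p of 0.040 and 0.049, and with the replicate number as a block both had 0.064. The Psmb8 call was also lost without any 1 of 5 arrays and the Zbp1 call without any 1 of 7.

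The exception in this list was Xaf1, an inhibitor of anti-apoptotic proteins, which read 8.33, 8.28 and 8.44 in 129S2, against 6.35, 6.08 and 6.04 in C57BL/6J (2.19, adjusted p = 9.2e-05). With the mean of its probe sets the difference was 0.17 (adjusted p = 0.77), and its 1 further probe set was not called the same way. The probe sets of Xaf1 thus disagree, and the direction of its difference is not established. Guanylate-binding proteins and related GTPases, which act against intracellular pathogens, showed the same single array. Gbp2 read 8.58, 8.22 and 8.54 in 129S2, against 12.19, 9.27 and 9.40 in C57BL/6J, and was not called (-1.84, adjusted p = 0.093). For the 16 tested genes of this list the median was -0.91, and -0.26 without C57BL/6J replicate 1, with 4 called lower in either case, though not the same 4.

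Trim34a, Trim30d and Gbp8 kept their calls without any single array, and Trim30a, a restraint on inflammatory signalling, did not. Trim34a read 6.24, 6.30 and 6.25 in 129S2, against 8.91, 8.50 and 8.51 in C57BL/6J (-2.38, SE 0.11, adjusted p = 4.7e-06). Trim30d read 5.64, 5.77 and 5.43 in 129S2, against 8.71, 7.91 and 7.63 in C57BL/6J (-2.47, adjusted p = 0.00026). All 129S2 arrays lay under the filter value for both. Gbp8 differed by -1.40, and Trim30a by -0.74, a call lost without any 1 of 5 arrays, C57BL/6J replicate 1 among them (adjusted p up to 0.082). In the Ifi200 family of DNA-binding proteins, Ifi204 read 4.89, 4.64 and 4.61 in 129S2, against 7.71, 7.20 and 7.46 in C57BL/6J (-2.74, adjusted p = 8.8e-06). Mndal and Ifi209 differed by -1.02 and -1.16, the Ifi209 call being lost without 129S2 replicate 2, and Ifi202b was higher, with 7.01, 7.01 and 6.94 in 129S2 and 4.67, 4.75 and 5.01 in C57BL/6J (2.17, adjusted p = 1.9e-05). Members of both families are similar in sequence.

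Of 19 genes of antigen presentation, 3 were called lower and 0 higher, and class II genes were not among them. H2-D1, a class I chain, read 12.36, 12.35 and 12.22 in 129S2, against 13.21, 13.02 and 13.07 in C57BL/6J (-0.79, adjusted p = 0.0046). With the mean of its probe sets H2-D1 differed by -0.51 and was not called. H2-Q2 differed by -1.73 and Tapbp by -0.62, and Tapbp had an adjusted p of 0.057 with the replicate block and lost its call without any 1 of 4 arrays. Where a gene's sequence differs between the strains, a difference in probe match and one in expression cannot be told apart.

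**Figure D4:**
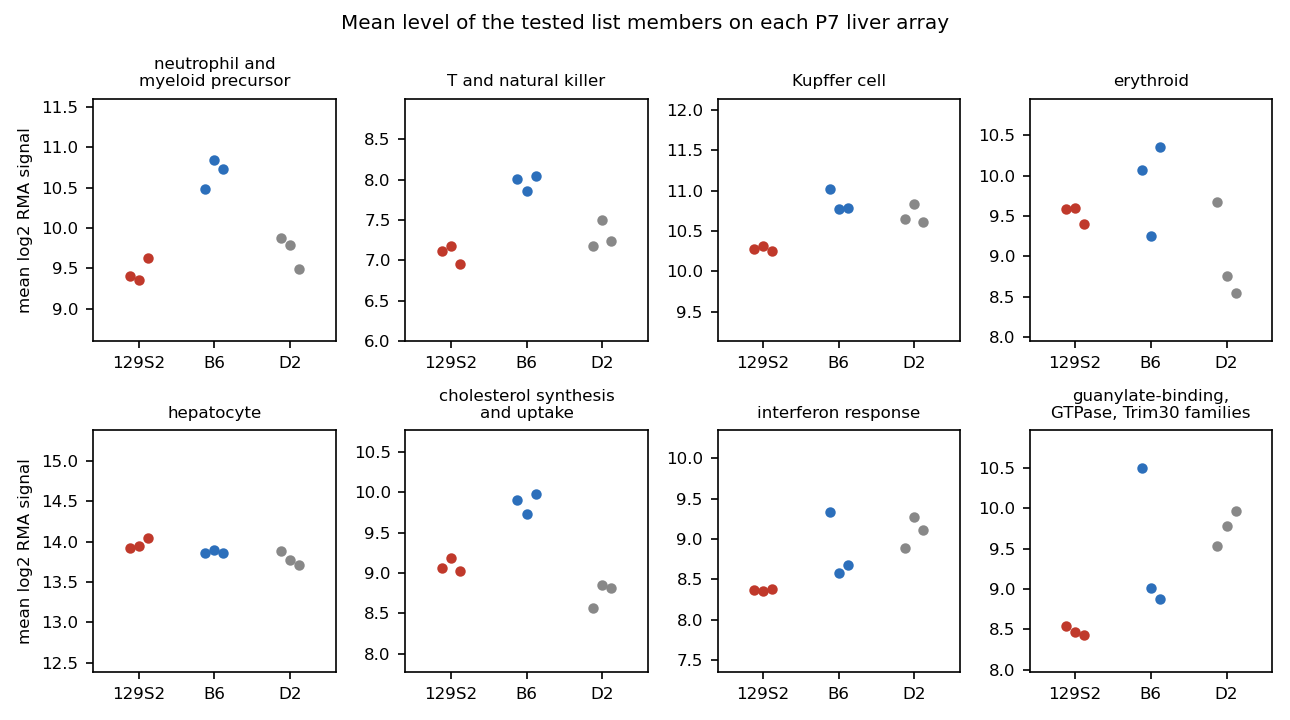
Points give the mean log2 RMA signal of the tested members of a list on each array of 129S2 (red), C57BL/6J (B6, blue) and DBA/2J (D2, grey) P7 liver, on axes of equal span. Every list shown but the erythroid one separates 129S2 and C57BL/6J on all arrays, narrowly for hepatocyte markers (13.93 or more against 13.90 or less). C57BL/6J replicate 1 is high for interferon genes at 9.33, and C57BL/6J replicate 2 is low for erythroid markers at 9.25.

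Amino acid breakdown and gluconeogenesis gave 4 of 25 genes called higher and 0 lower, with a median of 0.32 and 23 of 25 differences positive. Tdo2, the dioxygenase that opens tryptophan, read 13.29, 13.03 and 13.25 in 129S2, against 11.73, 12.29 and 12.37 in C57BL/6J (1.06, SE 0.15, adjusted p = 0.0020). Hal, which degrades histidine, read 10.50, 10.23 and 10.50 in 129S2, against 8.98, 9.72 and 9.38 in C57BL/6J (1.05, adjusted p = 0.0034). Cbs, an enzyme of cysteine synthesis, was higher by 0.72 and Haao, of the kynurenine pathway, by 0.61. Without 129S2 replicate 3 both lost the call, leaving 2 of the list, and Haao lost it without C57BL/6J replicate 1 as well. Pck1, the rate-setting enzyme of gluconeogenesis, differed by 0.04. With all 36 liver arrays in the fit Tdo2 had an adjusted p of 0.22.

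In bile acid synthesis and transport, 3 of 23 genes were called higher and 3 lower. Abcc2, the canalicular pump that exports conjugated bilirubin, read 7.71, 8.47 and 7.82 in 129S2, against 9.63, 10.32 and 9.75 in C57BL/6J (-1.90, SE 0.22, adjusted p = 0.00060). Acox2, the peroxisomal oxidase of bile acid side chains, read 11.97, 11.88 and 11.95 in 129S2, against 10.70, 10.70 and 10.79 in C57BL/6J (1.21, SE 0.08, adjusted p = 1.4e-05). Amacr, a racemase that acts before that oxidase, was lower (-0.76). Enzymes of one pathway thus differed in both directions. Slc22a7, an organic anion transporter of hepatocytes, was higher, with 10.59, 10.48 and 10.78 in 129S2 and 9.05, 8.83 and 9.58 in C57BL/6J (1.46, adjusted p = 0.00098).

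In fat metabolism, 1 of 30 genes of fatty acid oxidation was called higher and 4 lower, and 2 of 30 genes of synthesis and storage higher and 1 lower. Fgf21, a hormone of fasting and suckling, read 7.56, 7.82 and 7.63 in 129S2, against 6.70, 6.11 and 6.34 in C57BL/6J (1.29, adjusted p = 0.0020). Vnn1, the pantetheinase induced by PPARA, read 8.25, 8.99 and 8.44 in 129S2, against 10.32, 10.37 and 9.62 in C57BL/6J (-1.54, adjusted p = 0.0044). Pnpla3, a lipid droplet enzyme, was higher by 1.17. Pdk4 (-0.64), Scd1 (0.59) and Fabp2 (-0.69) each lost their call without any 1 of at least 4 arrays.

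Of the growth hormone and IGF axis, 2 of 20 genes were called higher. Igfbp3, the main carrier of IGF1 in plasma, read 11.61, 11.39 and 11.64 in 129S2, against 9.72, 10.41 and 10.21 in C57BL/6J (1.43, SE 0.19, adjusted p = 0.0011). Ghr, the receptor, was higher by 0.59, which was lost without any 1 of 5 arrays. Of 14 fetal and imprinted genes, 1 was called higher and 1 lower (median 0.03). Dlk1, an imprinted Notch-like protein of fetal hepatoblasts, was higher, with 9.82, 10.14 and 10.10 in 129S2 and 8.58, 8.89 and 8.67 in C57BL/6J (1.31, adjusted p = 0.0054). Bex1 was lower, with means of 11.06 in 129S2 and 12.29 in C57BL/6J (-1.23, adjusted p = 0.023). The Bex1 call was lost without any 1 of 4 arrays (adjusted p up to 0.094). C9, of the terminal complement complex, was higher by 1.5, and Cd59a, which blocks that complex, was lower (-1.33). None of 39 genes of oxidative phosphorylation, 10 of the urea cycle, 25 of the unfolded protein response, 14 heat shock genes, 24 apolipoprotein genes and 23 hepatocyte transcription factors was called, and their medians lay between 0.02 and 0.28. Of 31 ribosomal protein genes 1 was called, Rps6 (-1.15).

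Of 33 tested genes at loci with known structural or coding variants between mouse strains, 5 were called higher and 12 lower. Alad, an enzyme of haem synthesis, read 12.43, 12.32 and 12.38 in 129S2, against 11.45, 11.34 and 11.46 in C57BL/6J (0.96, SE 0.07, adjusted p = 6.4e-05), and Hdhd3 beside it was higher by 1.14. Nnt, the mitochondrial transhydrogenase in which C57BL/6J carries a known deletion, read 12.53, 12.39 and 12.32 in 129S2, against 11.42, 11.46 and 11.26 in C57BL/6J (1.03, adjusted p = 0.00012). Wdfy1, an adaptor of endosomes, was higher by 1.68 and its 2 further probe sets were called the same way. Galc, the lysosomal galactosylceramidase, was lower (-1.80), and so were the Fc receptor genes Fcgr4 (-1.98) and Fcgr3 (-0.97), the inflammasome genes Naip2 (-1.33) and Naip5 (-0.87), and the caspases Casp1 (-0.94) and Casp4 (-0.83).

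Among 12557 tested genes placed by RefSeq, 60 adjacent pairs with starts within 1 Mb were called in one direction, forming 49 runs of 2 or more and 8 of 3 or more, and all 8 were lower in 129S2. They were Cyp2b13, Cyp2b9 and Cyp2g1; Cyp2c68, Cyp2c37, Cyp2c54 and Cyp2c50; Mcpt8, Ctsg and Gzmb; Klrd1, Klrk1 and Klra5; S100a4, S100a6, S100a8 and S100a9; Slfn2, Slfn1, Slfn4 and AI662270; Ifi209, Ifi204 and Mndal; and A2ml1, Clec2h and BC035044. Most are clusters of related genes, whose probe sets may share signal. In the Slfn cluster, Slfn4 of myeloid cells differed by -1.61, and Slfn1 lost its call without 129S2 replicate 1. S100a6 lost its call without any 1 of 6 arrays. Clec2h, a C-type lectin, read 5.16, 4.98 and 5.22 in 129S2, against 8.69, 7.28 and 8.12 in C57BL/6J (-2.91, adjusted p = 0.00018), and both its further probe sets were called the same way. Over all called genes, 208 had a further tested probe set, and for 91 of these (43.8%) another was called in the same direction, for 6 in the opposite one.

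The strain difference was set against that at other stages and in P7 brain. Of the same 12580 genes, 487 were called in E14.5 liver (3.87%), 346 in P1 liver (2.75%), 1010 in P90 liver (8.03%) and 142 in P7 brain (1.13%). Filter and probe sets were chosen on P7 liver arrays alone. Genes with little signal in another set were thus kept there, and genes seen only in other sets were left out. These counts and overlaps therefore do not compare ages or tissues evenly. Of the 632 P7 liver calls, 197 were called in the same direction at E14.5 (31.2% of them, and 40.5% of the E14.5 calls), 170 at P1 (26.9% and 49.1%), 245 at P90 (38.8% and 24.3%) and 66 in P7 brain (10.4% and 46.5%). Calls in the opposite direction numbered 3, 5, 18 and 3. At all 4 liver stages 74 genes were called in one direction, 40 of them also in P7 brain, while 266 had no call in their P7 direction at another liver stage. Of the 632, 84.3%, 84.2% and 82.8% had the same sign at E14.5, P1 and P90, against 63.3%, 58.1% and 57.4% of all tested genes. The 266 are therefore not shown to be differences of P7 alone. Sets of arrays had been normalized apart, so a scale that differs between sets would enter the tests that follow.

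The test of the difference itself called 376 genes between P7 and E14.5 liver (2.99%), 432 between P7 and P1 (3.43%), 829 between P7 and P90 (6.59%) and 527 between P7 liver and P7 brain (4.19%). For 80 of the P7 calls the difference was larger than at both P1 and P90. Hddc3 was called in every set, with differences of 2.25, 2.39, 2.43 and 2.59 at E14.5, P1, P7 and P90 in liver and 2.46 in P7 brain. Tmem267 (-1.90, -2.77, -2.53 and -2.97, and -2.24 in brain) was also called in every set. The test of P7 liver against the other sets called neither gene (adjusted p 0.34 to 0.96), which does not show that their differences were equal.

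Other genes showed their difference in a window of development. Cyp2b9 differed by -0.21, -4.31, -6.53 and -0.04 over the stages E14.5, P1, P7 and P90. Its P7 value differed from that at P90 by -6.49 (SE 0.27, adjusted p = 2.2e-16). In P90 liver, normalized apart from P7, Cyp2b9 had means of 3.39 in 129S2 and 3.44 in C57BL/6J. Cd209g differed by 0.28, 2.14, 4.04 and 0.61 over the 4 stages, and Rsph4a by 0.00, 1.84, 3.63 and -0.02. Akr1c18 was lower at P1 and P7 (-2.53 and -3.47) and differed by 0.18 at P90. Ubd differed by -2.55 at P7 and between -0.17 and 0.34 at the other stages.

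A further group kept its difference into adult life. Asic5 differed by -0.07, 1.10, 3.39 and 4.16, Cyp2c37 by -0.44, -1.83, -2.43 and -3.48, and Trim34a by -1.82, -2.43, -2.38 and -3.09. Serpina6 was higher at P7 and P90 (2.90 and 2.19) and differed by 0.30 and -0.11 at E14.5 and P1. Cyp2c50 and Gsn turned direction between stages, Cyp2c50 with 2.39 at P1 and -1.04 at P7 (difference -3.43, adjusted p = 9.7e-09), and Gsn with 2.87 at P7 and -0.86 at P90 (difference 3.73). Slc22a7 was likewise higher at P7 (1.46) and lower at P90 (-1.01).

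**Figure D5:**
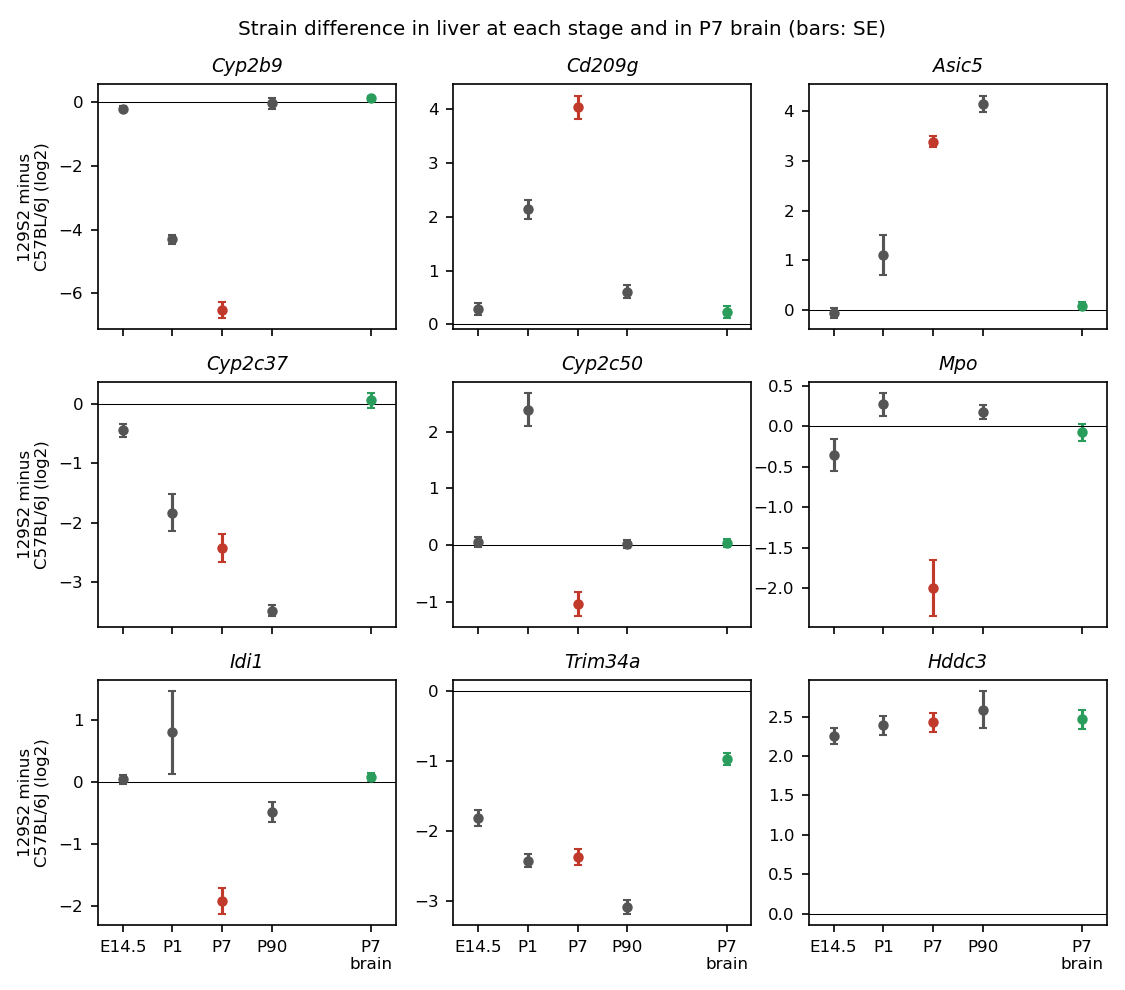
Points give the difference, 129S2 minus C57BL/6J (log2, bars SE), in liver at E14.5, P1, P7 (red) and P90 and in P7 brain (green), on vertical scales that differ between genes. Cyp2b9 reaches -6.53 at P7 and is near 0 at E14.5 and P90, Hddc3 stays between 2.25 and 2.59 in liver, and Cyp2c50 lies above 0 at P1 and below it at P7.

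The gene lists followed stage in their own ways. For cholesterol synthesis the median was 0.23, 0.45, -0.67 and -0.35 over the stages E14.5, P1, P7 and P90. By the test, 3, 8 and 2 of 20 genes had a more negative difference at P7 than at E14.5, P1 and P90. Idi1 differed by 0.80 at P1 and -1.92 at P7 (difference -2.73, adjusted p = 0.0050). For the neutrophil list the medians were -0.81, 0.12, -1.27 and 0.00, and 3, 8 and 8 of 15 genes differed from the other stages in that sense. Mpo differed by 0.27 at P1 and 0.18 at P90. At E14.5, P1 and P90, 4, 1 and 4 of the 15 were called lower and 0 higher. Among all genes 3.87%, 2.75% and 8.03% were called at these stages in either direction. For T and natural killer markers 6 of 11 were more negative at P7 than at E14.5 and 6 than at P90. Against P1, 2 were more negative at P7 and 1 less so, and 5 of 11 were called lower at P1, where Gzma differed by -3.71. The Kupffer list had medians of -0.31, -0.47, -0.66 and -0.73, with no gene apart from E14.5 or P90 by the test and 1 from P1. Erythroid markers had a median of 0.79 at P1, and 6 of 20 were more negative at P7 than at P1. The interferon list had medians of -0.35, -0.23, -0.48 and -0.82 over the stages. Of its 36 genes, 14, 2, 7 and 21 were called lower and 0, 1, 1 and 1 higher. By the test, 3 of them had a more positive difference at P7 than at P90 and 0 a more negative one. Of the 16 guanylate-binding and related genes, 7, 2, 4 and 10 were called lower and 3, 1, 0 and 0 higher. The differences at E14.5, P1 and P90 do not draw on P7 C57BL/6J replicate 1.

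DBA/2J P7 livers were measured in the same set and give values to read beside the 129S2 difference, both set against the same 3 C57BL/6J arrays, so that an unusual C57BL/6J value enters both. DBA/2J minus C57BL/6J called 556 genes (4.42%). The median of the cholesterol list was -0.67 for 129S2 and -0.91 for DBA/2J, and that of the neutrophil list -1.27 and -0.97. Idi1 differed by -1.92 in 129S2 and -2.13 in DBA/2J, and Cyp51 by -1.68 and -2.16. Cyp2b9 differed by -6.53 in 129S2 and -0.15 in DBA/2J, Asic5 by 3.39 and 0.05, and Gsn by 2.87 and -0.17. Serpina6 differed by 2.90 in 129S2 and -1.67 in DBA/2J, and the interferon list had medians of -0.48 and 0.12.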

How the data were processed

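Whole-liver RNA was hybridised to Affymetrix arrays of 45101 probe sets. The deposited values are log2 signals made by the authors with RMA, per the submitters' processing notes; its version is not given in the sources used here. The 9 arrays of each tissue and stage had been normalized together: within the P7 liver set 2.25% to 4.27% of values were identical between arrays, and none with other sets. Groups were taken from the labels. Of the probe sets, 34958 carried 1 gene symbol, 932 several and 9211 none; those with 1 gave 18194 genes.

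From the log2 values, limma 3.58.1 (R 4.3.3) fitted a mean for each strain over the 9 P7 liver arrays, including DBA/2J, which adds to the estimate of spread, and the contrast 129S2 minus C57BL/6J was tested two-sided. All adjusted p-values are limma's with Benjamini-Hochberg adjustment over the 12580 genes. Stages were compared by interaction over 36 liver arrays, and tissues over 18 P7 arrays. On simulated data for this contrast, 44% of genes changed 1.5-fold, 90% of those changed 2-fold and 100% of those changed 3-fold or 4-fold were recovered (50 genes each), and 7 of 12380 unchanged genes were called. The simulated noise was independent between genes, without the shifts shared by many genes of an array that are seen here. The 7 calls therefore do not estimate false calls in the real arrays. The 1.5-fold changes lay at the fold minimum itself. The number of arrays limits the precision.

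Replicate numbers were treated as pairs in an alternative fit: deviations from strain means correlated at 0.357, 0.359 and 0.293 for arrays of the same number and at -0.361 to 0.091 for others. The pairing comes from this check and not from a label.

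The comparison and gene lists were chosen with earlier results of these data known. Genes were named as the 15 highest and 15 lowest called genes that did not overlap, up to 4 called members of each list (or the smallest p where none was called), the 6 smallest p of each interaction, and members of runs of neighbours. Clone symbols, 27 of the called genes, were named only in runs. Chosen after their values were seen were Bst2, C1qa, C1qc, C9, Ccl5, Cmpk2, Cyp1a2, Cyp2f2, Hmgcs1, Insig1, Lss, Ltf, Msmo1, Mvd, Ngp, Nkg7, Nnt, Nsdhl and Sc5d, and the genes given as not called. Alternatives changed the filter, probe set, normalization, variance model, arrays, replicate block and fold minimum.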

Additional observations from a re-analysis of the deposited data

Results flagged for a closer look

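For the genes given here, the P7 liver difference, 129S2 minus C57BL/6J, departed from that of another set by the interaction test. They are the 6 with the smallest p in each comparison among genes called in P7 liver, and values are the P7 liver difference minus the other on the log2 scale.

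Against E14.5 liver the value was 3.76 for Cd209g, 3.63 for Rsph4a, 2.68 for Cox6b2, 1.88 for the lipid transporter Abca3 and -6.32 for Cyp2b9. Serinc3, a membrane protein, gave 1.47, being less low at P7 (-0.59) than at E14.5 (-2.05), and its P7 call was lost without 129S2 replicate 2, C57BL/6J replicate 1 or C57BL/6J replicate 3.

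Against P1 liver the value was -4.12 for Cyp2c54, -3.43 for Cyp2c50, -3.41 for H2-Q2, -1.98 for Mcpt8, -1.90 for Nxpe4 and 2.84 for the immunoglobulin segment Igkv8-30. Cyp2c54, Cyp2c50, H2-Q2 and Igkv8-30 had opposite signs at the 2 ages.

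Against P90 liver the value was 3.43 for Cd209g, 3.65 for Rsph4a, -6.49 for Cyp2b9, -4.50 for Cyp2c39 and -3.21 for Gdpd3. Cyp2c39 was higher at both ages (1.01 at P7 and 5.51 at P90), as was Gdpd3 (2.00 and 5.21). Ankrd33b gave 3.02, being less low at P7 (-0.89) than at P90 (-3.90), and its P7 call was lost without 129S2 replicate 2 or 3.

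Against P7 brain the value was 3.81 for Cd209g, 3.61 for Rsph4a, 3.31 for Asic5, -6.65 for Cyp2b9 and -1.97 for Mcpt8. Cthrc1, a secreted collagen-related protein, gave 2.16, with 0.88 in liver and -1.28 in brain.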

How the results depend on the processing

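Of the 127 called genes named by rule, all 127 kept their sign and 74 kept their call under every alternative run; 27 lost it when some single array was left out, and 3 (Psmb8, Zbp1 and Tapbp) with the replicate block, which called 618 genes, 600 of them shared with the 632. The count of called genes was 1268 with no fold minimum (684 higher, 584 lower) and 218 at 2-fold (82 higher, 136 lower), by the construction of those settings. With a single array left out it lay between 517 and 714, with 204 to 359 higher and 286 to 355 lower. The comparison of P7 with other sets called 276 to 394 genes for E14.5, 274 to 638 for P1, 658 to 898 for P90 and 438 to 638 for brain, and the 274 was reached without P7 liver C57BL/6J replicate 1 (the cause was not tested). Signals near background limit the folds of low genes.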
